A study of Plecoglossus altivelis with 2 samples.

Results

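The 50 components described here were well counted over 2 libraries together. They were at least 4-fold higher in ayu larvae kept in fresh water than in larvae kept in brackish water. They were found among 70911 components of a transcript assembly, of which 13095 had enough counts to be considered. Ayu (Plecoglossus altivelis) is a migratory fish of rivers and coastal sea. A component is the unit to which the authors' assembly assigned transcripts that belong together. It can stand for a gene, for part of a gene or for a group of very similar genes. The members were selected on measured values of the same comparison. Estimated counts were summed over the transcripts of each component, both libraries were brought to the mean of their totals, and components were kept when the scaled counts of both libraries summed to 1000 or more and the fresh water level was at least 4 times the brackish water level, with 0.5 added to each. Their fold changes are therefore a description and carry no test.

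The fresh water library came from larvae held in fresh water, and the brackish water library from larvae held in water with 0.17 M NaCl, a salinity of 10 ppt. Both groups were reared from hatching at 20 to 22 °C on commercial pellets, in groups of 20 fish with 4 tanks for each salinity, and were sampled after 4 weeks of acclimation. RNA of 9 tissues (gill, kidney, intestine, skin, liver, spleen, muscle, heart and brain) was mixed into 1 library per salinity, and the labels do not say how many fish entered each mixture. With 1 library per group there is no spread between animals or tanks, and no p-value was computed here. The p-based calls quoted further on are those of the authors' deposited table.

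Salinity changes what a bony fish must do to keep its salt and water balance. In fresh water, water enters the body and salts are lost, so gill ionocytes take up sodium, chloride and calcium, the kidney makes dilute urine, and prolactin is the hormone best known for promoting this state. In brackish water close to the salt content of the blood these gradients are small. In sea water the gill works the other way, with cortisol and growth hormone promoting salt secretion. The deposited identifiers come without gene names, so none of these roles is assigned to a member. Only 2 identifiers are printed, and the other members are given by their place in the order of fresh water counts.

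The fresh water library held 72522809 estimated counts and the brackish water library 72013090. Across the 13095 components with a scaled sum of at least 1000, the median log2 fold was 0.00039, so the scaling placed the bulk of these components at equal levels. The members were 0.382% of these 13095 components, a share fixed by the rule. The opposite set, higher in brackish water by 4-fold or more, held 47 components (0.359%). In a mixture of tissues, fewer cells of a type and less RNA per cell cannot be told apart, and unequal amounts of a tissue in the mixtures have the same effect on these values. Whether tissue amounts moved with the members was not tested, since no tissue marker can be found without gene names.

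Together the members took 0.619% of all scaled counts in fresh water, against 0.0975% in brackish water. Measured as TPM (which allows for transcript length), they took 0.560% of the fresh water library and 0.0863% of the brackish water library. Their median level was 42.0 TPM in fresh water and 5.43 TPM in brackish water. Among the other 13045 components with a scaled sum of at least 1000 the medians were 15.1 TPM in fresh water and 15.95 TPM in brackish water. The word abundant holds for the members in the sense of well counted over both libraries together, not of dominant. Their median scaled sum was 2012, below the 2743 of the other 13045 components. The minimum of 1000 was set on that sum, and 9 members had under 100 scaled counts in brackish water. By TPM, none of them was among the 100 highest components of either library. Among the 1000 highest components by TPM there were 10 members in the fresh water library and 2 in the brackish water library.

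**Figure D1:**
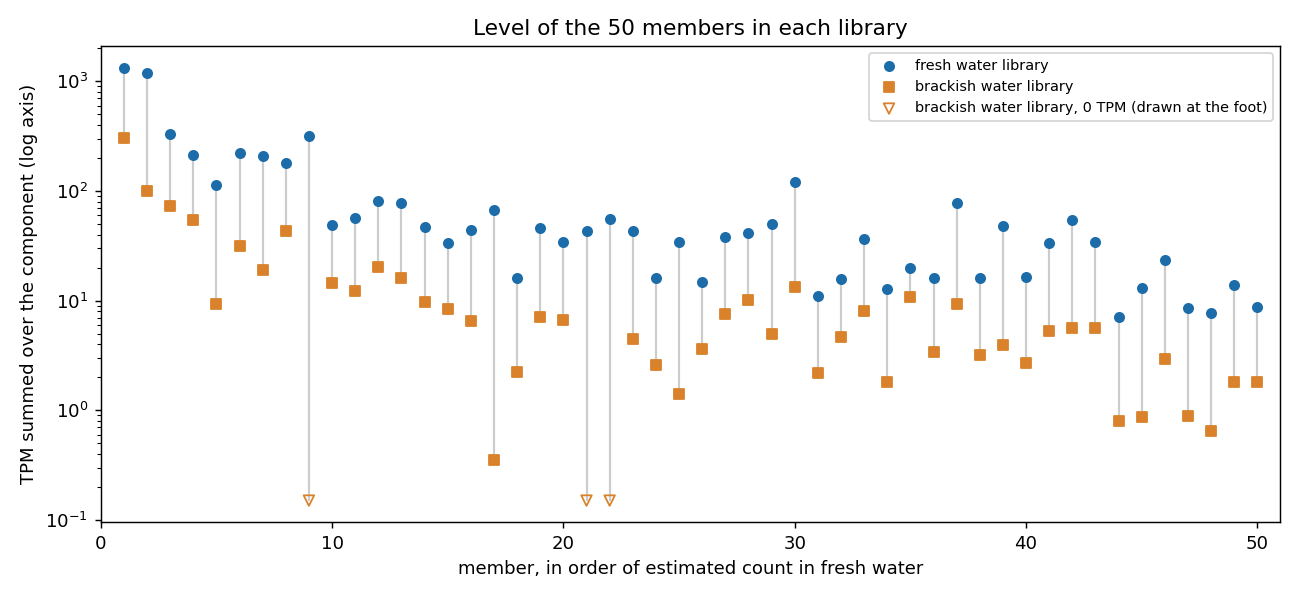
TPM of the 50 members, with circles for the fresh water library, squares for the brackish water library and triangles for members at 0 TPM in brackish water. Members are in order of their estimated count in fresh water, and the vertical axis is logarithmic. The first 2 members exceed 1000 TPM in fresh water, and 3 members were at 0 in brackish water.

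The member with the most counts in fresh water was component comp119621_c0, a single transcript of 1542 bases. It had 119298 estimated counts in fresh water, against 25794 in brackish water. Its level was 1333 TPM in fresh water, the 122nd highest of all components, and 306 TPM in brackish water, where it was the 334th highest. The fold of 4.59, with an exact 95% interval of 4.53 to 4.66, placed it near the lower limit of the rule despite its abundance. These intervals cover counting error only, and PCR copies without molecular identifiers do not count separate molecules.

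A handful of members held most of the RNA of the set. The 4 members with the most counts carried 69.5% of the members' scaled counts in fresh water, and the 10 with the most carried 83.2%. By TPM the 4 highest took 56.8% of the members' fresh water level. The second member by count, a component of 12 transcripts, had 1200 TPM in fresh water and 99.7 TPM in brackish water, a fold of 11.96 in scaled counts with an interval of 11.7 to 12.2. The third, a single transcript of 2194 bases, had 331 TPM in fresh water and 72.4 TPM in brackish water. The fourth, a single transcript of 2674 bases, had 214 TPM in fresh water and 54.0 TPM in brackish water. In brackish water each of these 4 still had 54.0 TPM or more.

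Most members differed by less than 8-fold. The fold was 4 to 5 for 12 members, 5 to 8 for 18, 8 to 16 for 15 and over 16 for 5. Among the 47 members with any count in brackish water the median fold was 6.45 and the highest 195.6. The lower limit of the counting interval lay above 4 for 45 of the 50 members, and for the other 5 the interval reached below 4.

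The 5 members over 16-fold had few or no counts in brackish water. Of these, 3 had 0 counts there. The ninth member by count, a single transcript of 501 bases, had 8387 estimated counts and 316 TPM in fresh water against 0 in brackish water. Set against a limit of 3 counts for a count of 0 in a library, the lower bound of its fold was 2776. The exact interval, which has no upper end, began at 2257. The 21st, a single transcript of 838 bases, had 2042 counts in fresh water, against 0 in brackish water. The lower bound of its fold was 676 by the limit of 3 counts, with an interval from 549. The 22nd, a single transcript of 665 bases, had 2025 counts in fresh water, against 0 in brackish water. The lower bound of its fold was 670 by the limit of 3 counts, with an interval from 545. The estimated fresh water counts of these 3 members were not whole numbers, and the limits treat an estimated 0 as an observed one. None of these 3 has a second transcript within its component, and whether brackish water reads were assigned to a similar transcript elsewhere was not tested.

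The 2 remaining members over 16-fold were detected in both libraries. The 17th by count, a single transcript of 869 bases, had 3249 counts in fresh water, against 16 in brackish water, a fold of 195.6 with an interval of 124.0 to 353.2. Component comp116272_c0, which has 2 transcripts, had 1815 counts in fresh water, against 74 in brackish water, a fold of 24.2 with an interval of 19.3 to 31.2. In TPM it stood at 33.9 in fresh water and 1.42 in brackish water. Another subcomponent of the same component number, with a longest transcript of 3288 bases, was lower in fresh water, with 2026 counts in fresh water, against 3051 in brackish water, 0.660 times the brackish water level.

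**Figure D2:**
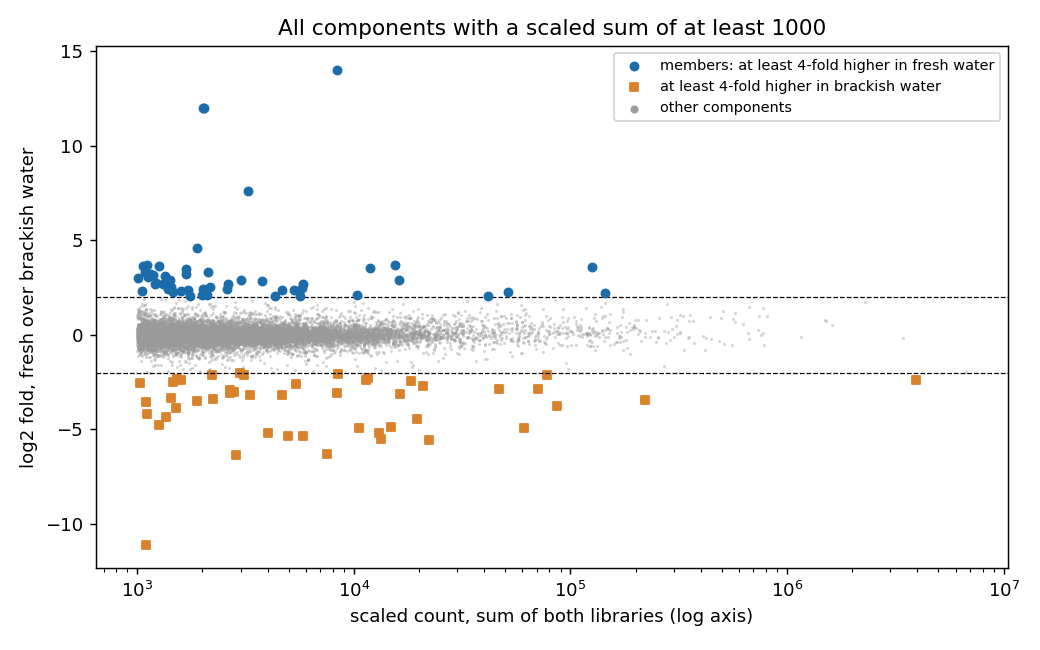
Log2 fold (fresh over brackish water) against the scaled count summed over both libraries (log axis) for the 13095 components with a scaled sum of at least 1000. Circles are the 50 members, squares the 47 components 4-fold or more higher in brackish water, with dashed lines at 4-fold. Members range in sum from 1011 to 144764, and the opposite set has a component of far higher count.

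The limits of the rule cut through a continuous range. The 3 members closest to the fold limit had folds of 4.12, 4.17 and 4.18, and the 3 components just outside it had 3.80, 3.87 and 3.90. In all, 28 components with a scaled sum of at least 1000 were between 3 and 4-fold higher in fresh water. At the limit of abundance, the members with the smallest scaled sums had 1011, 1055 and 1061 scaled counts, and the 3 components just below it had 902, 940 and 955 scaled counts with folds of 14.9, 6.59 and 6.41.

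The share of components that met the fold limit did not rise or fall steadily with abundance. Members were 23 of 4677 components (0.492%) with a scaled sum of 1000 to 2000 and 14 of 4722 (0.296%) from 2000 to 5000. From 5000 to 20000 they were 9 of 2904 (0.310%), and above 20000 they were 4 of 792 (0.505%). The opposite set held 12, 12, 14 and 9 components in the same 4 classes, so it was spread more towards high counts.

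The rule set no limit on length, but its minimum was set on counts, which depend on transcript length as well as level. The members were short. The longest transcript of a member had a median of 1243 bases, with a lowest of 270 and a highest of 3804 bases. In the other 13045 components the median was 2051 bases. Members under 1000 bases numbered 19 (38%), against 13.8% of the other components. Only 1 member exceeded 3000 bases, whereas 25.4% of the other components did. The opposite set was about as short. The 47 components higher in brackish water had a median of 1240 bases, and 18 of them (38.3%) were under 1000 bases.

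Seen by length class, 3 of 294 components under 500 bases were members (1.02%) and 16 of 1523 from 500 to 1000 bases (1.05%). From 1000 to 2000 bases 20 of 4509 were members (0.444%), from 2000 to 3000 bases 10 of 3447 (0.290%), and from 3000 bases 1 of 3322 (0.0301%). In the same order of classes the opposite set made up 1.70%, 0.854%, 0.399%, 0.174% and 0.151%. From 1000 bases upwards the share of members fell with each class, and the share of the opposite set fell across all 5 classes. Members were shorter than the other components in 3 of the 4 abundance classes, with medians of 1211 against 1658 bases at 1000 to 2000 scaled counts, 1234 against 2213 at 2000 to 5000 and 1005 against 2756 at 5000 to 20000. Above 20000 the medians were 2014 bases in the 4 members and 2002 in the other components.

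Members also had few transcripts. A single transcript made up 30 members (60%), against 35.5% of the other components, and 3 members (6%) had over 5 transcripts, against 26.2%. Components higher in brackish water were alike in this, with 30 of 47 (63.8%) holding 1 transcript. Length and number of transcripts go together in the assembly. Among components with 1 transcript the median length was 1062 bases in members and 1343 bases in the others, and among components with several it was 1656 bases in members and 2480 bases in the others. No test was made of these differences, and how far an incomplete assembly of a gene sets them was not tested.

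**Figure D3:**
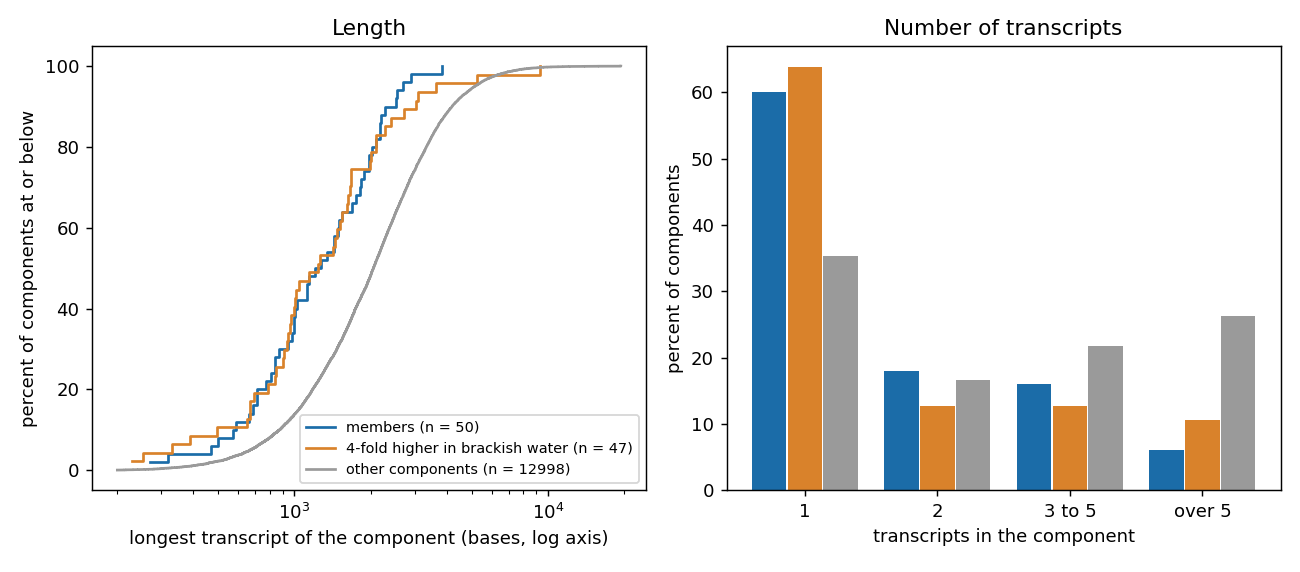
Left, cumulative percent of components by the length of their longest transcript (bases, log axis), and right, percent of components by number of transcripts, for the 50 members, the 47 components of the opposite set and the other 12998 components with a scaled sum of at least 1000. Both 4-fold sets lie to the left of the other components and more often have 1 transcript.

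The 20 members with several transcripts held 69 transcripts, of which 59 had at least 50 scaled counts over both libraries. Their directions mostly agreed. Of the 59, 56 were higher in fresh water, 54 at least 2-fold and 48 at least 4-fold, and 3 were lower in fresh water. In 18 of the 20 members every counted transcript was higher in fresh water, and in 13 every counted transcript was at least 4-fold higher. Among all 8440 components with several transcripts and a scaled sum of at least 1000, these numbers were 1126 and 14, members included. Of the counted transcripts in those 8440, 49.3% were higher in fresh water. A higher total makes higher parts likely, so the members' counts describe the members and are no separate evidence of their direction.

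A transcript at least 2-fold lower in fresh water was present in 1 of the 20 members (5%). Among all 8440 components with several transcripts and a scaled sum of at least 1000, 4303 (51.0%) had such a transcript. The 2 shares are not alike in construction, since the members were chosen for a higher total in fresh water and have fewer transcripts. Counted transcripts at 0 in brackish water numbered 8 of 59 (13.6%), in 5 members, and none was at 0 in fresh water. Several of the 8 lay in the second member. Below the minimum for a counted transcript, one of 709 bases in the 27th member had 0 counts in fresh water, against 44 in brackish water. Over all components with several transcripts the shares were 6.10% at 0 in brackish water and 7.29% at 0 in fresh water. The choice of members for a higher fresh water total favours zeros in brackish water, so these shares are not alike in construction either.

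The member that held opposed transcripts was the second by count. Its most abundant transcript in fresh water, of 1668 bases, had 41829 counts in fresh water, against 183 in brackish water. Transcripts of 1590 and 1558 bases had 19907 and 9700 counts in fresh water, and both were at 0 in brackish water. Its most abundant transcript in brackish water, of 1804 bases, had 110 counts in fresh water, against 3886 in brackish water, and one of 1638 bases had 251 counts in fresh water, against 1462 in brackish water. The leading transcript of fresh water took 36.0% of the component's counts in fresh water, against 1.90% in brackish water. The component was thus 11.96-fold higher in total, with different transcripts in the lead. The 12 transcripts were close in length, from 1558 to 1834 bases, and no error comes with the way reads were divided among them.

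The 35th member by count, with 5 transcripts, had the lowest TPM fold of the set. Its transcript of 2107 bases had 825 counts in fresh water, against 17 in brackish water. A transcript of 297 bases had 68 counts in fresh water, against 110 in brackish water. The scaled count of the component was 5.80-fold higher in fresh water, but its TPM was 19.9 in fresh water and 10.7 in brackish water, a fold of 1.86. By counts the short transcript took 5.57% of the component in fresh water, against 52.5% in brackish water.

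The leading transcript, the one with the most counts, was the same in both libraries for 16 of the 20 members (80%). Over all 8440 components with several transcripts and a scaled sum of at least 1000 it was the same for 78.0%. The largest move of any transcript's share of counts had a median of 13.2 percentage points in the members and 11.7 in all such components. It reached 50 points or more in 2 of the 20 members (10%) and in 2.95% of all such components. The members at issue were the 35th, where it was 58.9 points, and the 36th, where it was 55.0 points. Their brackish water shares rest on totals of 210 and 247 counts. Since the rule favours low brackish water counts, 10% and 2.95% are not alike in construction. In the 36th the transcript of 1290 bases had 935 counts in fresh water, against 53 in brackish water, and the transcript of 1433 bases had 269 counts in fresh water, against 163 in brackish water.

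Component comp116272_c0, the member with the largest fold among those with several transcripts, kept its leading transcript. That transcript, of 977 bases, had 1490 counts in fresh water, against 74 in brackish water. The second, of 837 bases, had 325 counts in fresh water, against 0 in brackish water. Both transcripts were higher in fresh water.

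**Figure D4:**
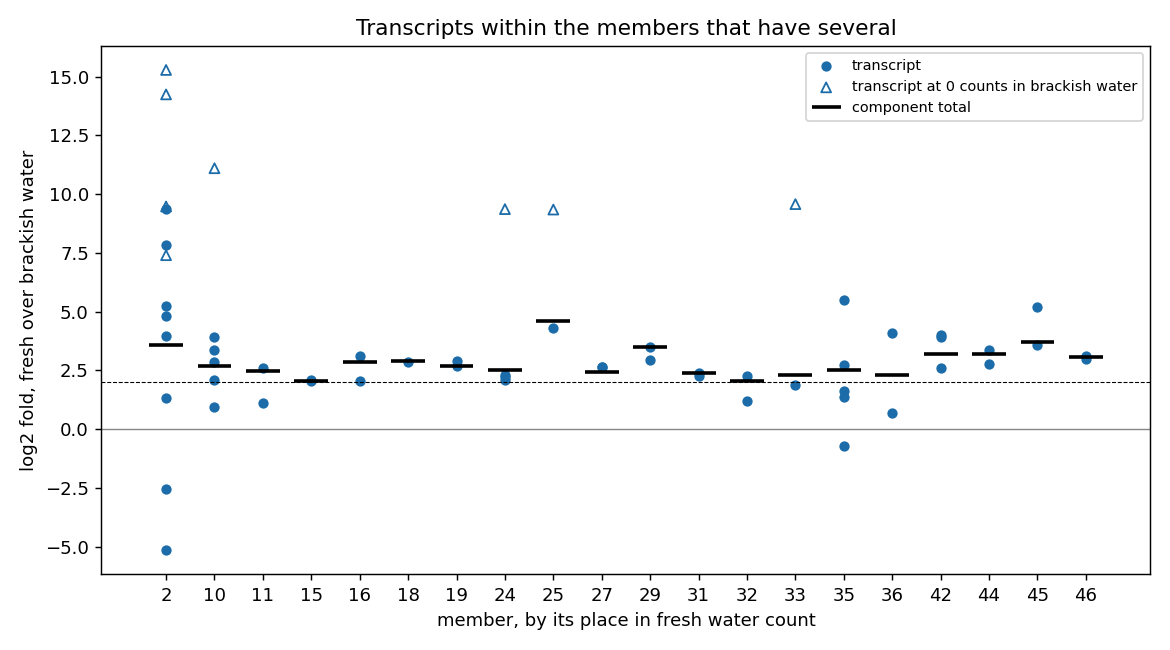
Log2 fold (fresh over brackish water, pseudocount 0.5) of the 59 counted transcripts in the 20 members with several transcripts, with filled circles for transcripts present in brackish water, open triangles for those at 0 there, and a bar for the component total. Members are named by their place in fresh water count, and the dashed line marks 4-fold. Transcripts below 0 appear in the second and the 35th member only.

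The deposited TPM gave a similar picture for most of the set. The TPM fold was under 4 in 6 of the 47 members with counts in brackish water, and its median was 6.20. It was 3.966 in the 4th member by count, 3.365 in the 10th and 3.999 in the 12th. In the 15th it was 3.949, in the 32nd 3.402 and in the 35th 1.859. Relative to the fold of scaled counts, the TPM fold had a median ratio of 0.949 in the members and 0.948 over all components with a scaled sum of at least 1000, so the TPM scale as a whole sits slightly lower in fresh water.

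Assembly identifiers also group components, through a shared component number, into subcomponents. The 50 members carried 48 component numbers, because the 19th and 40th members share one and the 45th and 49th share another. For 38 members the component number held no further subcomponent. The remaining 10 component numbers held 26 subcomponents that were not members and had at least 100 scaled counts. Several share a number, so the 26 are not independent units. Their values did not enter the choice of the member beside them. A subcomponent that met the rule itself was a member and is not among the 26. Of these, 5 (19.2%) were at least 2-fold higher in fresh water and none was 2-fold lower, and the median fold was 1.31. Among all 31872 components with at least 100 scaled counts, 6.76% were at least 2-fold higher in fresh water, and the median fold was 1.01. These 31872 include the members, so the shares are not alike in construction.

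The higher share among the 26 came largely from 1 component number. The tenth member by count, of 7 transcripts, had 5041 counts in fresh water, against 776 in brackish water, and 3 other subcomponents of its number were also higher in fresh water. One of 435 bases had 148 counts in fresh water, against 2 in brackish water. One of 720 bases had 213 counts in fresh water, against 14 in brackish water, and one of 728 bases had 183 in fresh water, against 13 in brackish water. Without this number, 2 of 23 subcomponents (8.70%) were at least 2-fold higher in fresh water. These 2 were a subcomponent of 3530 bases beside the second member, with 2658 counts in fresh water, against 748 in brackish water, and one of 2554 bases beside the 19th and 40th members, with 1390 counts in fresh water, against 669 in brackish water. Over all 26, the middle 50% of folds ran from 0.899 to 1.70. Beside the 35th member, the 3 other subcomponents had folds of 0.891, 0.934 and 1.03.

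The authors' deposited table compares the libraries transcript by transcript. For 28 of the 50 members the authors' deposited table called a transcript up in fresh water, against 1.08% of all components with a scaled sum of at least 1000. Since the table rests on the same counts, this is no independent support. In the authors' deposited table, the members held 32 of the 158 transcripts called higher in fresh water (20.3%), and those 158 were 0.118% of the 133434 transcripts in it. The authors' deposited table also calls 1 transcript of a member lower in fresh water, the transcript of 1804 bases in the second member. Called members included 22 of the 30 with 1 transcript and 6 of the 20 with several. The share called among all components was not counted separately for those with 1 transcript and those with several. Whether this split is particular to the members was therefore not tested.

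The called members stood at higher FPKM than the others. The highest transcript of a called member had a fresh water FPKM (fragments per kilobase of transcript, scaled to library size) of 21.4 to 1057, with a median of 48.4. In the 22 members without a call it was 4.39 to 22.5, with a median of 10.4. These ranges overlapped by 1 member on each side. The median fold was 8.08 in called members and 6.11 in members without a call. The median length of the longest transcript was 959 bases in called members and 1851 bases in the others. Their counts differed too, with a median scaled sum of 3518 in called members and 1449 in members without a call. In the authors' deposited table the transcript of comp119621_c0 has a log2 fold of 2.20, fresh over brackish water, and the longer transcript of comp116272_c0 has a log2 fold of 4.32 with an FDR of 0.0102. The shorter transcript of comp116272_c0, at 0 in brackish water, has an FDR of 1 there.

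**Figure D5:**
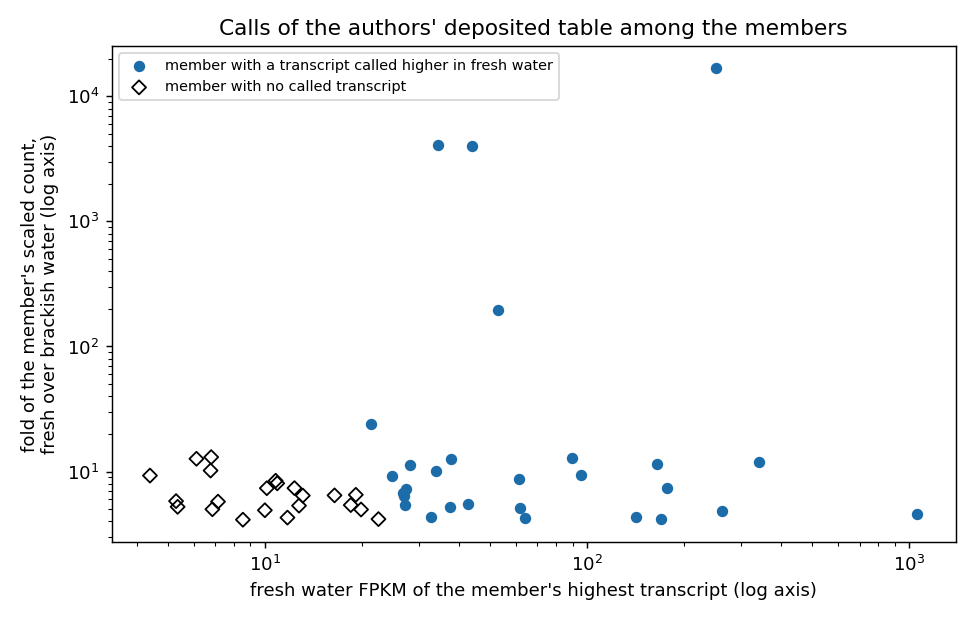
Fresh water FPKM of each member's highest transcript (log axis) against the fold of the member's scaled count, fresh over brackish water (log axis). Filled circles are the 28 members for which the authors' deposited table called a transcript up in fresh water, and open diamonds the 22 without one. No member below an FPKM of 21.4 holds a call.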

How the data were processed

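RNA sequencing covered 2 libraries, 1 per salinity, each a mixture of 9 tissues. The authors deposited per transcript an estimated count, a TPM value, an FPKM value and the percent of its component, per the file headers. No source used here names the assembler, the aligner or the quantifier. The authors' deposited table adds a log2 fold, p-value and FDR. The test behind its p-values is not stated, and its log2 fold was that of fresh over brackish water FPKM, within 1e-06, in all 104470 transcripts above 0 in both libraries.

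Estimated counts were summed by component with pandas 2.3.3 in Python 3.11.15 and scaled to the mean of the library totals, without rounding. Fold intervals are exact (Clopper-Pearson, scipy 1.17.1) on rounded counts. TMM factors (edgeR 4.0.16) and DESeq2 1.42.0 size factors, from rounded component counts in R 4.3.3, served as alternatives. The code of the rule was checked on simulated counts that held counting error only. These had no spread between animals or tanks, so the check says nothing about how the members would repeat. Members and thresholds were chosen with earlier results of these data known. The printed identifiers are the member with the most fresh water counts and the member with several transcripts and the largest fold. Other members were singled out after their values were seen. Gene names, sequences and genome positions were not used here.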

Additional observations from a re-analysis of the deposited data

How the results depend on the processing

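With 1 library per salinity no library could be left out. No paired analysis was possible because there is a single library for each salinity. TMM factors were 0.9996 for the fresh water library and 1.0004 for the other, and both DESeq2 size factors were 1. The median shift of the log2 fold was 0.00113 under TMM and 0.0102 under DESeq2. The folds nearest the limit were 3.90 and 4.12, so these factors could hardly change membership. The set of 50 members held all 50 under TMM factors, DESeq2 size factors and a pseudocount of 5. It numbered 45 when the counting interval had to lie wholly above 4 (45 shared), 44 by TPM (44 shared), and 45 when the component number with the most counts was left out of the totals (43 shared), which moved the median log2 fold by -0.15. It moved with the limits themselves, to 81 at a scaled sum of 500, 27 at 2000, 3629 with no minimum, 78 at 3-fold and 20 at 8-fold. Counted as single transcripts, 226 of 14688 met the limits. They lay in 201 components, of which 43 were members, and 7 members held no such transcript.

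Members with a transcript at least 2-fold lower in fresh water numbered 1, and 2 when transcripts with at least 20 scaled counts entered. The leading transcript was the same in both libraries for 16 of 20 members by counts and for 16 of 20 by TPM, with 15 members in both counts. Calls of the authors' deposited table covered 28 members, and 19 at an FDR under 0.001. The share of all components called at an FDR under 0.001 was not counted. Other subcomponents at least 2-fold higher in fresh water numbered 5, against 6 at 50 scaled counts, 2 at 500, 3 at 4-fold, and 2 without the component number that held most of them, an alternative chosen after the data had been seen. Depth limits most the members at or near 0 counts in brackish water, and the lack of replicates limits every value.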

Other observations

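The numbers in the members' identifiers were not evenly spread. In 2 ranges of component number, 51000 to 52000 and 87000 to 88000, there were 10 of the 50 members (20%), against 0 of the 47 components higher in brackish water and 4.76% of all 13095 components with a scaled sum of at least 1000. The ranges were chosen after the values were seen, so no test applies, and no source used here says what the numbering of the assembly reflects. Components with 1 transcript were more frequent there. Among those, the share was 9 of 30 members (30%), 0 of 30 in the opposite set and 540 of 4655 overall (11.6%).

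Counts that were whole numbers in both libraries, within 0.005, were found for 7 of the 30 members with 1 transcript (23.3%), against 13.7% of all 4655 such components. For the other 23 the estimated count was not whole in at least 1 library.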
